A study of Mus musculus with 2 samples.

Results

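The Fos and Jun family was followed in 2 tumors grown under the skin of mice from RMS3, a line that the labels class as PRMS without spelling the abbreviation out. The members were taken by name: every non-control spot of the arrays that carries the name Fos, Fosb, Fosl1, Fosl2, Jun, Junb, Jund (listed as Jund1), Atf3, Batf or Maff. This gave 10 genes of the 28786 genes and transcripts on the array, read by 12 probes at 30 spots. Tumor 2 and tumor 1 form 1 group: each was raised by injecting 1000000 RMS3 cells in 200 µl of phosphate-buffered saline into a male C57BL/6J mouse, and each was taken after 2 weeks. The protocol text calls the harvested tissue metastatic, but the sample labels name tumors of subcutaneous injection. Neither the age of the mice nor any genetic change in host or cells is given. No cultured, uninjected or treated sample belongs to the group, and both tumors come from a single line. Each tumor was read on its own single-color array, so the comparison is how far the tumors differ from each other. With 1 array a tumor no p-value can be given, and having only 2 arrays limits the precision.

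Fos and Jun proteins bind DNA in pairs through a basic region and a leucine zipper, and the pairs are known together as AP-1. Jun proteins can pair with themselves or with Fos proteins, whereas Fos proteins need a partner such as Jun. Fos, Fosb, Jun, Junb and Atf3 are early genes whose transcripts rise soon after growth factors, wounding or stress and then decay, while Jund is transcribed more steadily. In tumors of many kinds AP-1 drives genes of proliferation, invasion and inflammation, and in muscle precursors Jun is known to restrain differentiation.

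The promoters of the 5 early genes are shown because Fos, Jun and Junb were higher in tumor 2 while Fosb and Atf3 were not. Each line gives the 250 bases before a start of the gene in RefSeq, build GRCm38.p6, read 5′ to 3′ along the gene. Capitals mark TGACG, the core of the site bound by Atf and Creb factors, and TGACNTCA, the full site with any base in the middle, on either strand. The motifs were chosen after the values of the genes were known.
Fos, chr12:85473640-85473889, plus strand: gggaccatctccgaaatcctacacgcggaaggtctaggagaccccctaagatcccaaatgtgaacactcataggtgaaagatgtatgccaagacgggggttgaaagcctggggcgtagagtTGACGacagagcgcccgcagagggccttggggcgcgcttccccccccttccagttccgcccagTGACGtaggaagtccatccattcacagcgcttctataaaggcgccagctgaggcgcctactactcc
Jun, chr4:95052223-95052472, minus strand: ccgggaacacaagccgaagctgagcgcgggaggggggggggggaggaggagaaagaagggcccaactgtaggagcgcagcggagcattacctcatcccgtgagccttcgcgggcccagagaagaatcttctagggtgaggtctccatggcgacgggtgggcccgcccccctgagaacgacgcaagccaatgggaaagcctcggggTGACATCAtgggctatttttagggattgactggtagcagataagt
Junb, chr8:84978749-84978998, minus strand: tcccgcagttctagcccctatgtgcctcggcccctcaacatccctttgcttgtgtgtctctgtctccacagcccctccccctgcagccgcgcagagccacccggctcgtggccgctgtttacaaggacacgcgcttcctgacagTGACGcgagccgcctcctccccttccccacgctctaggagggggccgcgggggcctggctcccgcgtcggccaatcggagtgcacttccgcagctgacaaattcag
Fosb, chr7:19310046-19310295, minus strand: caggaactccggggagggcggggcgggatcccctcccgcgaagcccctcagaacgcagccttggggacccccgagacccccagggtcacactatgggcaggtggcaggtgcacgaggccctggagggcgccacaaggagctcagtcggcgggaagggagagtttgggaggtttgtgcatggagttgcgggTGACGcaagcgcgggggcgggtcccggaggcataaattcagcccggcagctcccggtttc
Atf3, chr1:191183334-191183583, minus strand: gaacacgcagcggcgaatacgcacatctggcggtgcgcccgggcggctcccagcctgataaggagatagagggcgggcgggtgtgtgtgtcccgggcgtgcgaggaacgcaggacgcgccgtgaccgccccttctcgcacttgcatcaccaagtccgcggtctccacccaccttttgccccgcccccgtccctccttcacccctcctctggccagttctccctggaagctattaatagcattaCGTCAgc
The Fos window held TGACG at 2 places and TATAAA from base -33 to base -28, and the Jun window held TGACATCA from base -45 to base -38, the last base before the start being -1. Junb, Fosb and Atf3 each held TGACG at 1 place. The annotated Fosb gene reaches to base 19310118, so its window overlaps the gene and its TGACG lies inside the gene. RefSeq windows were matched for 9 members, and Fosl1 was not among them. A member was counted if any of its windows held the motif, and Maff had several windows, whereas the shares count each window. TGACG occurred in 6 of these 9 members and in 17.8% of all 32851 windows, and TGACNTCA in 2 members, Jun and Maff, and in 7.49% of windows. TGACGTCA contains both motifs. The classical AP-1 site TGACTCA was in none of the 9 members' windows and in 4.46% of all windows, and the CArG box in none and in 1.47%. TATAAA was in 1 member, Fos, and in 12.4% of windows. These matches describe letters within the windows only. Sites more than 250 bases before the start were not searched, so a motif counted in none may still lie further upstream.

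The file of array 2 marks 69 spots as outliers and that of array 1 marks 1128, and spots close to these marks were less reliable. Values are therefore given for spots more than 2 rows and columns away from an outlier flag of array 1 or from one of the 11 spots of high local background on array 2, which left 72.2% of spots. Probes printed 10 times show the difference: of their 409 spots near such places 29.6% read at least 2-fold further towards tumor 2 than the probe's mean away from them, against 0.858% of their 1282 other spots. Of the members' spots, 21 lay away from flags and 9 near them. Fosl1 and Jund had only spots near flags, so 8 members had a value. The level of a probe is log2 of its processed signal relative to the array's 75th percentile over the spots used, which was 902 in tumor 2 and 995 in tumor 1. Levels compare the tumors for 1 probe and do not rank genes, since probes differ in how strongly they bind.

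All 10 members were transcribed in both tumors. Every one of the 30 spots was well above background on both arrays, whereas 59.2% of all genes were detected on both when all unflagged spots were used. In the 8 members with a value, no difference reached 2-fold in either direction. Across the 13945 genes detected away from flags, 2.59% were at least 2-fold higher in tumor 2 and 3.87% at least 2-fold lower, and 6.45% were that far apart in either direction. With all unflagged spots, where 10 members had a value, 1 member (Fosl1) was at least 2-fold higher and none lower, against 5.05% and 6.86% of 16812 genes. Of the members, 5 were higher in tumor 2 and 3 lower, with a median difference of 0.13 (log2, tumor 2 minus tumor 1), against a median of -0.01 over all genes and 48.4% of all genes higher in tumor 2. The quartiles over all genes were -0.29 and 0.25.

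**Figure D1:**
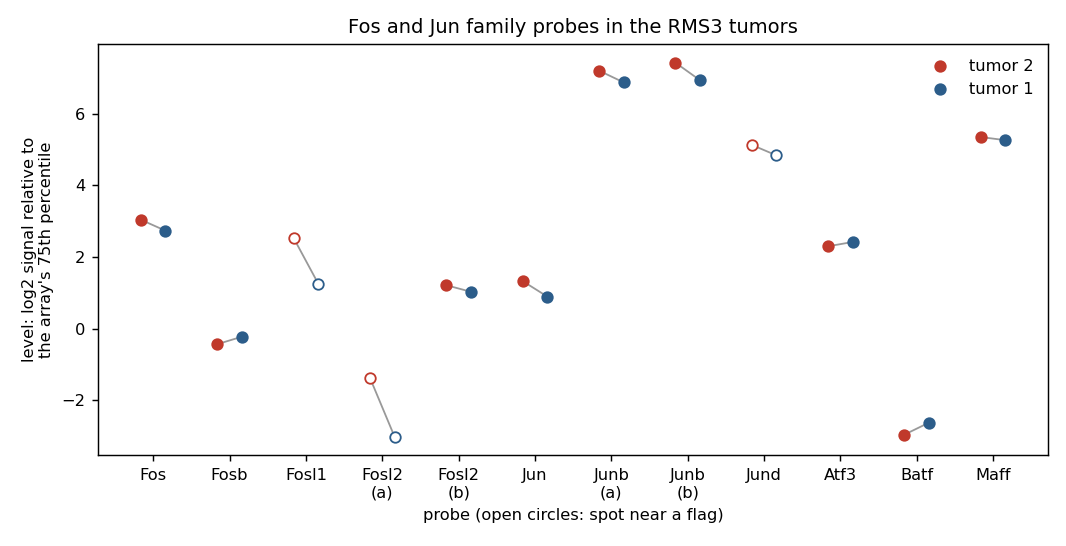
Level of each Fos and Jun family probe (y axis, log2 signal relative to the array's 75th percentile) in tumor 2 (red, left) and tumor 1 (blue, right); a and b are different probes of 1 gene, and open circles are probes with only spots near flags. Junb sits at 7.20 and 7.43 in tumor 2 against 6.88 and 6.94 in tumor 1, and the widest gaps, at Fosl1 and Fosl2 (a), rest on spots near flags.

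Fos, which encodes the founding partner of Jun, was slightly higher in tumor 2. Its 1 probe is printed 10 times, and 8 of these spots lay away from flags. In tumor 2 these spots had a processed signal of 7035 at the lowest, 7256 at the median and 8223 at the highest. In tumor 1 they had 5970 at the lowest, 6595 at the median and 7140 at the highest. The unscaled ranges overlapped slightly, and after scaling they did not, with levels from 2.96 to 3.19 in tumor 2 and from 2.59 to 2.84 in tumor 1. The level of Fos averaged 2.89 ± 0.21 (SD, n = 2 tumors), and the difference was 0.30 with a standard deviation of 0.05 over the 8 spots, 1.23-fold. All 8 spots were higher in tumor 2, as were the 2 near flags, at 0.35 and 0.52. This spread covers the error of a spot and not that of a tumor, an extraction or a labelling. The difference of Fos lay above that of 78.5% of all genes, and 46.0% of genes differed by more in either direction.

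Jun, the partner that can also bind DNA as a pair with itself, showed the larger difference. Of its 10 spots, 6 lay away from flags. In tumor 2 these had a signal of 2128 at the lowest, 2250 at the median and 2465 at the highest. In tumor 1 they had 1700 at the lowest, 1875 at the median and 2050 at the highest, below every spot of tumor 2. The level averaged 1.11 ± 0.30 (SD, n = 2 tumors), and the difference was 0.43 with a standard deviation of 0.06 over the 6 spots, 1.35-fold. This lay above 85.6% of all genes. The 4 Jun spots near flags were less even. On array 2 they ranged from 2191 to 2353, like the other spots. On array 1, 2 of them read 538 and 1250 and the other 2 read 1830 and 2000, so that the single-spot differences ran from 0.36 to 2.27. Of the detected spots within 5 rows and columns, 75 around the spot of 538 had a median difference of 0.07 and 61 around the spot of 1250 one of -0.14.

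**Figure D2:**
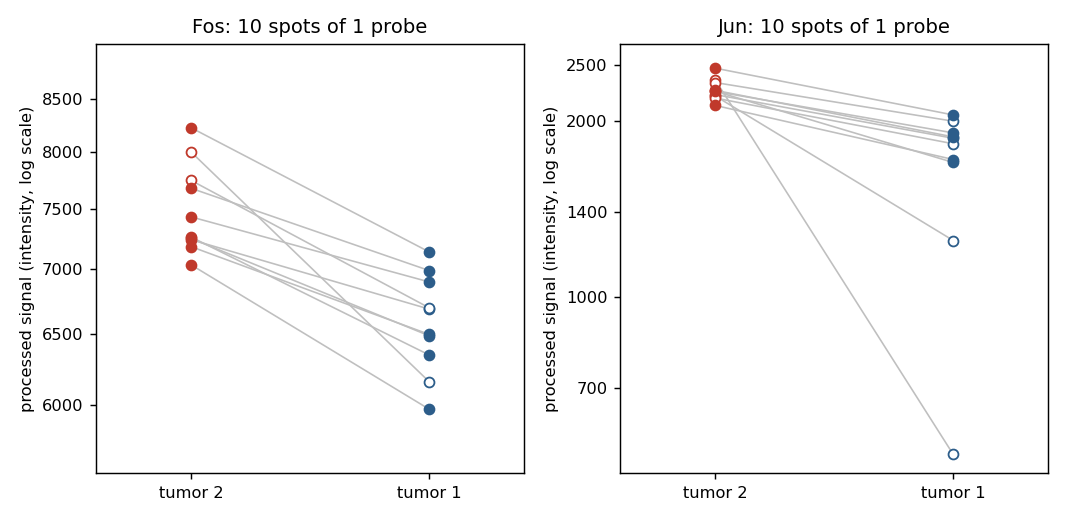
Processed signal (intensity, log axis) of the 10 spots of the Fos probe and the 10 spots of the Jun probe in tumor 2 (red) and tumor 1 (blue); a line joins the same position on both arrays and open circles are spots near flags. Every line falls towards tumor 1, and 2 Jun spots near flags drop to 538 and 1250 there.

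The difference of both genes can be set beside other probes printed 10 times. Of 179 such probes with at least 3 detected spots away from flags, 54 had a larger difference towards tumor 2 than Fos and 32 a larger one than Jun. Differences of these 179 probes had a standard deviation of 0.43 between probes, and the spots of 1 probe had one of 0.23. The Fos and Jun differences thus exceeded the spot error and lay within the range of differences that other well-measured probes showed between these tumors. Genes with a single spot carry an error near 0.23 in their difference, taken from all repeat spots together. The repeat-spot error was 0.19 for probes with a mean level at or above 0 and 0.27 for those below 0.

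Junb, a Jun protein that often opposes the growth effects of Jun, was read by 2 probes, both away from flags. The first had a signal of 132826 in tumor 2 and 117000 in tumor 1, a difference of 0.32. The second had 155144 in tumor 2 and 122000 in tumor 1, a difference of 0.49. The probes went the same way and neither was saturated. The gene difference was 0.41 (1.33-fold), above that of 84.6% of genes, at a level of 7.11 ± 0.29 (SD, n = 2 tumors). Jund, the steadily transcribed Jun protein, had 1 spot, with a signal of 31586 in tumor 2 and 28500 in tumor 1. This spot had 6 flags within 2 rows and columns, and its difference of 0.29 on the same scale was close to the median of 0.24 of the 60 detected spots around it.

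The other Fos proteins did not form 1 pattern. Fosb, whose shortened form is known for its long life in brain, had a signal of 668 in tumor 2 and 850 in tumor 1, a difference of -0.21 (0.867-fold). Fosl1, known as Fra-1 and tied to invasion in carcinoma lines, had a signal of 5188 in tumor 2 and 2380 in tumor 1. Its difference of 1.27 (2.40-fold) on the same scale, or 1.04 when all unflagged spots set the scale, rests on 1 spot with a flag 2 rows or columns away, and no spot elsewhere checks it. The median difference of the 69 detected spots around it was 0.08. Fosl2, known as Fra-2, had 2 probes that disagreed. The probe away from flags had 2087 in tumor 2 and 2030 in tumor 1, a difference of 0.18, which was -0.04 when all unflagged spots set the scale. Relative to the median of all genes it was 0.20 on the first scale and 0.17 on the second, so the turn in sign followed the shift of all genes. The probe near flags had 345 in tumor 2 and 123 in tumor 1, a difference of 1.63. Both readings near flags point towards tumor 2, the direction in which repeat spots near flags strayed, and the part of the flagged surroundings in them was not tested.

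**Figure D3:**
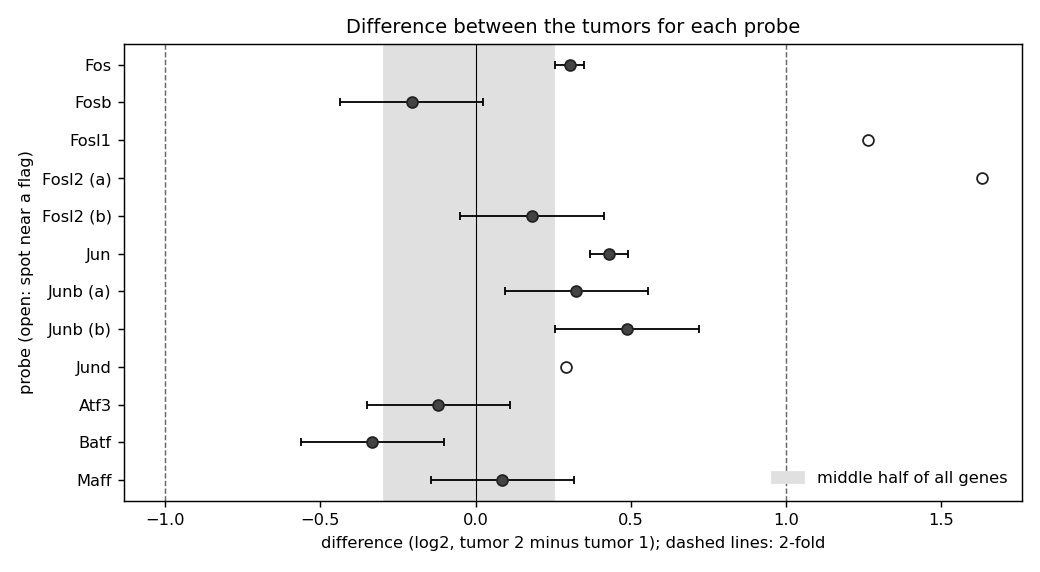
Difference of each probe (x axis, log2, tumor 2 minus tumor 1), with bars of 1 standard deviation between spots (the probe's own for Fos and Jun, the repeat-spot value of 0.23 for single spots), no bar for open circles near flags, and the range between the quartiles of all genes in grey. Of the probes away from flags, Fos, Jun and both Junb probes lie to the right of the grey band at 0.30 to 0.49. Batf lies to its left at -0.33. The points beyond 2-fold, Fosl1 and Fosl2 (a), lie near flags.

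Among the related factors no member differed by more than 0.33. Atf3, a stress-induced factor that pairs with Jun proteins, had a signal of 4437 in tumor 2 and 5320 in tumor 1, a difference of -0.12, at a level of 2.36 ± 0.09 (SD, n = 2 tumors). Batf, a factor of lymphocytes and dendritic cells that pairs with Jun proteins and lacks an activation domain, was lower in tumor 2. Its uncorrected mean signal was 167 in tumor 2 and 213 in tumor 1 over a local background of 47.0 and 46.0, and its processed signal was 116 in tumor 2 and 161 in tumor 1, a difference of -0.33. Maff, a small Maf protein that forms pairs with Nrf-type factors, had a signal of 36767 in tumor 2 and 38200 in tumor 1. Its difference after scaling was 0.09, which turned to -0.06 in the unscaled value table and to -0.14 when all unflagged spots set the scale. With all unflagged spots Batf differed by -0.56 and Atf3 by -0.35, or by -0.35 and -0.14 relative to the median of all genes. In the unscaled table Batf differed by -0.47 and Atf3 by -0.26. Away from flags and after scaling, differences of Fosb, Fosl2, Atf3 and Maff were smaller than the repeat-spot error of 0.23.

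The way the arrays were scaled moved all genes together. The median over all genes was -0.21 when all unflagged spots were used and -0.16 in the unscaled table, so differences were also taken relative to that median. Before that step, the differences with all unflagged spots were 0.10 for Fos, 0.43 for Jun and 0.18 for Junb. In the unscaled table they were 0.16 for Fos, 0.29 for Jun and 0.26 for Junb. Relative to the median, over the 12 settings tried, Fos stayed between 0.29 and 0.46, Jun between 0.41 and 0.64 and Junb between 0.30 and 0.56. Maff stayed between 0.04 and 0.24. Fosb lay between -0.22 and -0.05 and Batf between -0.35 and -0.18 over the 11 settings in which they had a value. Atf3 was lower in tumor 2 in all 11 settings that gave it a value, and relative to the median it lay between -0.14 and 0.04. Its 1 positive value came without a filter on dim probes, where its own difference stayed at -0.12 and the median over all genes moved to -0.16 as undetected genes entered it. The unscaled table also changed the balance of all calls, with 261 genes at least 2-fold higher in tumor 2 and 807 lower, against 361 higher and 539 lower after scaling.

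**Figure D4:**
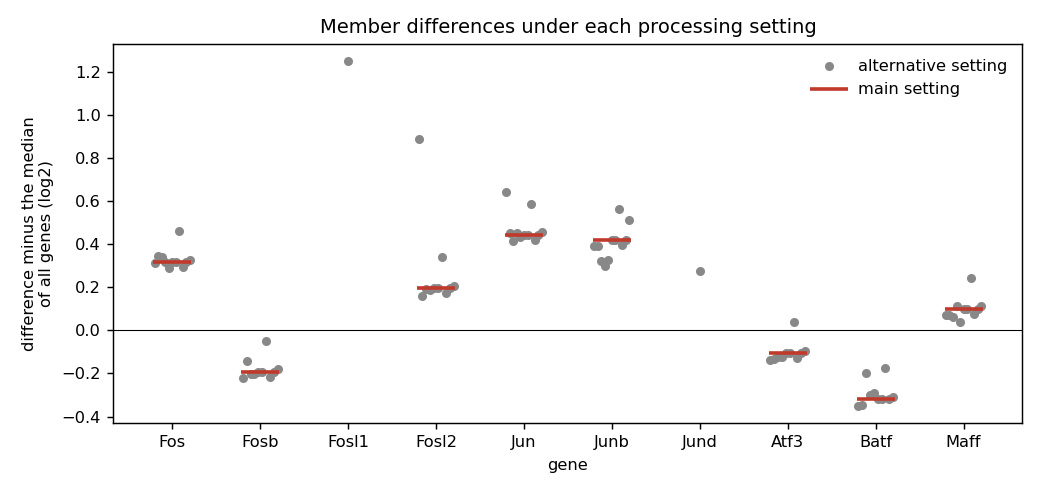
Difference of each gene minus the median difference of all genes in the same setting (y axis, log2, tumor 2 minus tumor 1), for the main setting (red bar) and each alternative that gave a value (grey points). Fos, Jun and Junb stay at 0.29 or above, Fosb and Batf stay below 0, and Fosl1 and Jund have a value with all unflagged spots alone.

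Genes that act with or on AP-1 were counted from lists. Of 16 partners that bind DNA with Fos or Jun proteins or share their kind of zipper, 13 had a value: 9 were higher in tumor 2, none of them 2-fold, and the median was 0.11. With all unflagged spots 6 of 15 were higher and the median was -0.21, against 31.8% of genes higher and a median of -0.21 over all genes. The widest were the small Maf gene Mafk, at -0.03 in tumor 2 and -0.78 in tumor 1 (difference 0.75), and Mafg, at 2.39 in tumor 2 and 1.78 in tumor 1 (0.61). Of 25 genes upstream of AP-1 (kinases, a ubiquitin ligase subunit, Creb1, Srf and its partners), 21 had a value, 11 higher and 10 lower, none 2-fold apart, with a median of 0.00. Srf, which switches on early genes, had a difference of 0.30 (0.08 with all unflagged spots). Relative to the median of all genes the Srf differences were 0.32 and 0.28. Mapk8, which encodes the Jun kinase JNK1, had a difference of 0.00 away from flags, at a low level of -3.72 in both tumors. With all unflagged spots the median difference over the Mapk8 probes was -0.46, or -0.25 relative to the median of all genes. The median levels of these probes went the other way, at -2.29 in tumor 2 and -3.68 in tumor 1. The Mapk8 probes thus disagreed and give no direction in that setting. The widest of this list away from flags were Elk4, a partner of Srf, at -0.69 and Map2k7, an activator of JNK, at 0.67. Both levels were low, with Elk4 at -5.01 in tumor 2 and -4.32 in tumor 1 and Map2k7 at -3.81 and -4.42. With all unflagged spots Elk4 differed by -0.22 and Map2k7 by 0.44, or by -0.01 and 0.65 relative to the median of all genes. Over the list 11 of 23 were then higher, with a median of -0.02, against 31.8% and -0.21 over all genes.

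Among 10 phosphatases that switch off MAP kinases, 8 had a value and 5 were higher in tumor 2. Dusp1, an early gene itself, lay at 4.50 in tumor 2 and 3.34 in tumor 1, a difference of 1.16, and Dusp9 lay at 0.07 in tumor 2 and -0.98 in tumor 1, a difference of 1.05. With all unflagged spots their differences were 0.93 and 0.82, and relative to the median of all genes they were 1.17 and 1.06 away from flags and 1.14 and 1.03 with all unflagged spots. The list's median was 0.13, and -0.08 with all unflagged spots. Of 23 genes known as AP-1 targets, 20 had a value and 15 were higher in tumor 2, with a median of 0.14. With all unflagged spots 8 of 22 were higher, with a median of -0.09, against 31.8% of genes higher and a median of -0.21 over all genes. The urokinase gene Plau lay at 0.68 in tumor 2 and -0.58 in tumor 1 (1.26, or 1.03 with all unflagged spots). The matrix proteases split: Mmp14 differed by 0.52 (0.29 with all unflagged spots) and Mmp9 by 0.22 (1.07), but Mmp3 by -0.31 (-0.53) and Mmp10 by -0.51 (-0.74). Mmp1a differed by 0.18 away from flags and by -0.05 with all unflagged spots, or by 0.19 and 0.16 relative to the median of all genes. Mmp13, with spots near flags alone, lay at 1.27 in tumor 2 and 3.65 in tumor 1 on the scale of all unflagged spots. Among genes with a value away from flags, 2 of 8 phosphatases and 1 of 20 targets were at least 2-fold higher, against 2.59% of all genes, and none was 2-fold lower, against 3.87%.

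**Figure D5:**
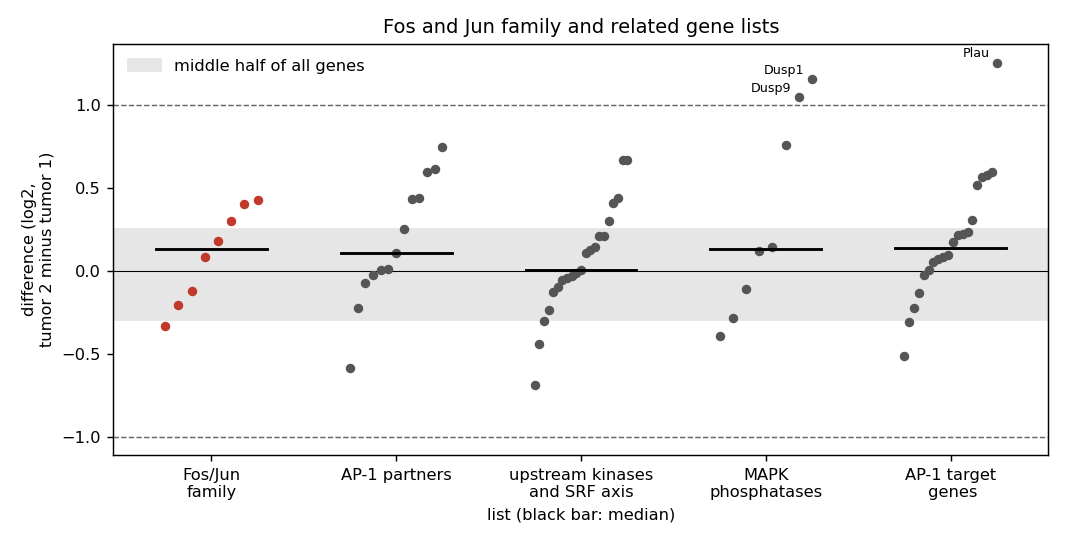
Difference of each gene with a value away from flags (y axis, log2, tumor 2 minus tumor 1) in the Fos and Jun family (red) and in related lists (grey points), with list medians as black bars, 2-fold as dashed lines and the range between the quartiles of all genes shaded. Family members lie between -0.33 and 0.43, and only Dusp1, Dusp9 and Plau pass 2-fold.

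Bulk tumor RNA holds RNA of tumor and host cells, and fewer cells of a type cannot be told apart from less RNA per cell. Of 8 skeletal muscle markers, 6 were detected on both arrays, while Myf5 and Pax7 were on neither. Of the 5 with a value, 4 were higher in tumor 2, at a log2 summed level of 0.45 in tumor 2 and -0.40 in tumor 1. Des (1.24) and Myh3 (1.07) were at least 2-fold higher, against 2.59% of all genes, while Myod1 was lower (-0.35). Acta1, with spots near flags alone, lay at 1.32 in tumor 2 and -4.37 in tumor 1 on the scale of all unflagged spots. That is a difference of 5.68. Markers of several cell types moved alongside Fos, Jun and Junb, and their part in those differences was not tested. All 3 keratinocyte markers with a value, of 6 listed, were higher in tumor 2, with a log2 summed level of 0.19 in tumor 2 and -2.49 in tumor 1. These were Krt5 (3.55), Krt14 (3.64) and Dsp (0.81). The other markers of that list did not follow: Krt1 was detected in tumor 1 alone, Krt10 differed by -0.10 on spots near flags with all unflagged spots as the scale, and the defining factor Trp63 was detected on neither array. All 4 erythroid markers with a value were higher, at 5.32 in tumor 2 and 4.56 in tumor 1, while Epb4.2 was not detected. All 3 neutrophil markers with a value were higher, at a summed level of 6.48 in tumor 2 and 6.09 in tumor 1. Mpo and Elane were not detected and Ly6g is not on the array under that name. Summed levels mostly follow the brightest markers of a list. Here S100a9 lay at 6.17 in tumor 2 and 5.81 in tumor 1, and Cxcr2 at -3.58 and -4.05. All 6 fibroblast markers were lower in tumor 2, at 4.19 against 4.66 in tumor 1, and 5 of 6 endothelial markers were lower, at 1.72 in tumor 2 and 2.23 in tumor 1. Of the 6 T cell and 6 B cell markers 2 each were detected, and of the 3 macrophage markers with a value, of 6 listed, 1 was higher in tumor 2, at a summed level of 1.26 in tumor 2 and 1.35 in tumor 1.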

How the data were processed

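Total RNA of 2 tumors was hybridized to single-color (Cy3) Agilent mouse arrays on 1 slide. The submitters' processing notes name Agilent Feature Extraction 8; per the file headers it was 9.1.3.1. The deposited intensity is its processed signal, which per the file headers was background-subtracted and detrended within each array; no scaling between arrays is recorded. The deposited values of the series table equalled it at all 45018 spots. Signals of tumor 1 carry 3 significant digits. Gene names follow the file of tumor 2, and genes other than the members were renamed through RefSeq accessions (GRCm38.p6).

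Of 43379 non-control spots, 66.1% in tumor 2 and 62.3% in tumor 1 were well above background. Outlier spots were dropped on both arrays. So were positions up to 2 rows and columns from a flagged spot on array 1, or from a spot on array 2 whose local background exceeded 100. Log2 signals were scaled to the 75th percentile and averaged over spots. Probes with at least 50% of spots well above background counted as detected, and a gene took the median difference of its detected, unsaturated probes. No test was run. The procedure was tested on simulated data. Both simulated arrays were made from array 2, so disturbances particular to array 1 were not covered. Alternatives changed the spots used, background correction, scaling, detection, the choice of probe or left out a tumor.

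All members are named. The lists leave out 2 genes that are not reported here. From the partner, upstream, phosphatase and target lists, genes at least 2-fold apart, or else the 2 widest, are named. Srf, Mapk8, the Mmp genes and the markers were picked after their values were seen. Members, lists and the filter on spots were chosen with earlier results of these data known. Python 3.11.15, R 4.3.3 and limma 3.58.1 were used.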

Additional observations from a re-analysis of the deposited data

How the results depend on the processing

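The number of members at least 2-fold higher in tumor 2 was 0, and it was 1 with all unflagged spots, through Fosl1, whose only spot lies near a flag. No member was at least 2-fold lower in any of the 12 settings. The number detected was 8. It was 5 in the rows below row 338 alone, where Fos, Jun, Junb, Batf and Maff keep spots, 10 with all unflagged spots, and 7 among the brighter probes. Without either tumor it was 8 to 8, which shows nothing about stability, since every member spot was well above background on each array. The median difference of the members was 0.13 and ranged from -0.01 in the unscaled table to 0.36 in the lower rows. Across all genes 361 were at least 2-fold higher and 539 lower. These counts were 849 and 1153 with all unflagged spots, 913 and 1315 without a filter on dim probes, 172 and 150 after normexp correction, 107 and 84 among brighter probes and 147 and 257 in the lower rows, where fewer genes have a value. The cause of these shifts was not tested. No paired analysis was possible because the tumors form 1 group. A single spot limits the precision of Fosb, Fosl1, Fosl2, Jund, Atf3, Batf and Maff.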
